A study of Arabidopsis thaliana with 6 samples.

Results

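The 7 genes described here are FLC, its 5 close MADS-box relatives FLM (also named MAF1), MAF2, MAF3, MAF4 and MAF5, and FRI. They were picked by gene identifier from the 28775 features of a poly(A) RNA sequencing study of Arabidopsis thaliana. Can-0 and Col-0, a pair of natural accessions that are founders of the MAGIC mapping population, were each sequenced once from 3 tissues, giving 6 libraries and no replicate of any group. The groups were Can-0 and Col-0 seedlings of 11 days from soil, Can-0 and Col-0 roots of 10 days from plates, and Can-0 and Col-0 floral buds of stage 12 from soil. Plants of both accessions were kept in 16 hours of light at 20 C, and the labels mention no cold period, transgene or other treatment. Seedling libraries of both accessions shared sequencing run 33 and root libraries run 40, while the bud libraries came from run 35 (Can-0) and run 36 (Col-0). Tissue and run thus cannot be told apart, and in buds accession and run cannot be told apart either.

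FLC is a MADS-box transcription factor that represses flowering. FRI encodes a scaffold protein that, with partner proteins, activates FLC transcription, and Col-0 is known to carry a loss-of-function fri allele. Prolonged cold silences FLC through VIN3 and Polycomb proteins, and the autonomous pathway keeps FLC low without cold. FLC and its relatives bind with SVP, a further MADS-box protein, and hold down SOC1 and FT, which promote flowering.

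The genes lie at 4 loci of the RefSeq assembly TAIR10.1, whose nuclear chromosomes carry the TAIR10 sequence. FLC (AT5G10140) lies on the minus strand of chromosome 5, at 3173382 to 3179448. MAF2 (AT5G65050), MAF3 (AT5G65060), MAF4 (AT5G65070) and MAF5 (AT5G65080) stand head to tail on the plus strand of the same chromosome, from 25982254 to 26002619. FLM (AT1G77080) spans 28955483 to 28960234 of chromosome 1 and FRI (AT4G00650) spans 268901 to 271503 of chromosome 4, both on the plus strand. The start of the coding sequence shows how alike the 6 clade members are, which bears on how reads could be shared between them. The 60 bases below code for the start of the MADS domain in the Col-0 reference, and capitals mark bases that differ from FLC. The stretch begins at the start codon, except in MAF5, whose longest annotated coding sequence starts 7 codons earlier.
FLC, chr5:3179280-3179339, minus strand: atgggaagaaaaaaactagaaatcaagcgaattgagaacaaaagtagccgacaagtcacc
FLM, chr1:28955679-28955738, plus strand: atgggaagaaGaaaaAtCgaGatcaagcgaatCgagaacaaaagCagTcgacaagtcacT
MAF2, chr5:25982415-25982474, plus strand: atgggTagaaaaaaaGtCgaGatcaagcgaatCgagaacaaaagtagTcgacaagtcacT
MAF3, chr5:25987527-25987586, plus strand: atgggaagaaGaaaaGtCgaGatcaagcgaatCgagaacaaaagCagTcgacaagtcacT
MAF4, chr5:25992310-25992369, plus strand: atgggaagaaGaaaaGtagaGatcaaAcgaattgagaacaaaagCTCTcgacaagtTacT
MAF5, chr5:25997671-25997730, plus strand: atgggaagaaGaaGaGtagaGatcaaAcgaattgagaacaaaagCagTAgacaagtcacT
The relatives differ from FLC at 7 to 10 of these 60 bases. Over the whole longest coding sequences FLC is 71.1% to 77.7% identical to the others, and its longest identical run with any of them is 20 bases. MAF2 and MAF3 are the closest pair, at 93.6% identity with a longest identical run of 59 bases. FLM and MAF3 are 89.7% identical and share a run of 61 bases. The sources used here do not say how reads that match more than 1 gene were assigned, so the division of reads among FLM, MAF2 and MAF3 is uncertain.

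Values are RPKM, read counts scaled to a kilobase of exon model and to the mapped reads of the library, as deposited by the authors. Differences are of log2(RPKM + 1), so they understate the change of genes near 0. The spacing of small values put the libraries at 21580000 to 22700000 mapped reads, so that 1 read in a 1 kb gene was worth 0.0441 to 0.0463 RPKM. Intervals are exact 95% Poisson or binomial (Clopper-Pearson) intervals on reads estimated with the shortest annotated transcript of each gene. That choice gives the fewest reads and the widest intervals, so an overlap, or an interval that includes equal levels, depends on it. The intervals cover counting error only, since the reads carry no molecular identifiers. Tissue markers set the tissues apart. The 5 root markers were each at 0.161 RPKM or below in Can-0 seedlings and at 0.173 RPKM or below in Col-0 seedlings. In roots they were at 5.68 RPKM or above in Can-0 and 4.34 RPKM or above in Col-0. The seedling libraries thus held little root RNA, and seedling values here describe mainly shoot tissue. The 4 flower markers summed to 689 and 572 RPKM in Can-0 and Col-0 buds, and no root or seedling library exceeded 2.38 RPKM for that sum. The 4 photosynthetic markers summed to 6.57 RPKM in Can-0 roots and 49.1 RPKM in Col-0 roots, against 12148 and 15489 RPKM in Can-0 and Col-0 seedlings. Of the pollen and tapetum markers, VGD1 stood at 593 and 465 RPKM in Can-0 and Col-0 buds and the early tapetum gene A9 was listed at 0 in all 6 libraries.

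FLC was high in every Can-0 library and low in every Col-0 library. It stood at 104 RPKM in Can-0 seedlings and 4.85 RPKM in Col-0 seedlings, at 106 RPKM in Can-0 roots and 0.124 RPKM in Col-0 roots, and at 27.8 RPKM in Can-0 buds and 0.123 RPKM in Col-0 buds. The lowest Can-0 library thus lay above the highest Col-0 library, a separation that was not counted over all genes. The Can-0 over Col-0 ratio was 21.4 in seedlings (interval 17.3 to 26.4), 854 in roots (291 to 8684) and 226 in buds (77.0 to 2312). The wide intervals in root and bud follow from the Col-0 values there, which correspond to about 2.46 to 2.91 reads.

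Within each accession FLC had its own tissue profile. In Can-0 it was near level between seedlings and roots and lower in buds, with non-overlapping counting intervals of 25.5 to 30.3 RPKM in buds, 99.1 to 108 RPKM in seedlings and 102 to 111 RPKM in roots. In Col-0 it stood above a few reads in seedlings alone, with intervals of 0.0121 to 0.360 RPKM in buds, 3.94 to 5.94 RPKM in seedlings and 0.0122 to 0.365 RPKM in roots. The labels put seedling and root libraries on soil and plates, so growth medium and organ cannot be told apart here. A non-coding RNA gene is annotated across the FLC locus on the opposite strand, and the sources used here do not say whether counting used strand, so sense and antisense reads at FLC cannot be told apart.

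**Figure D1:**
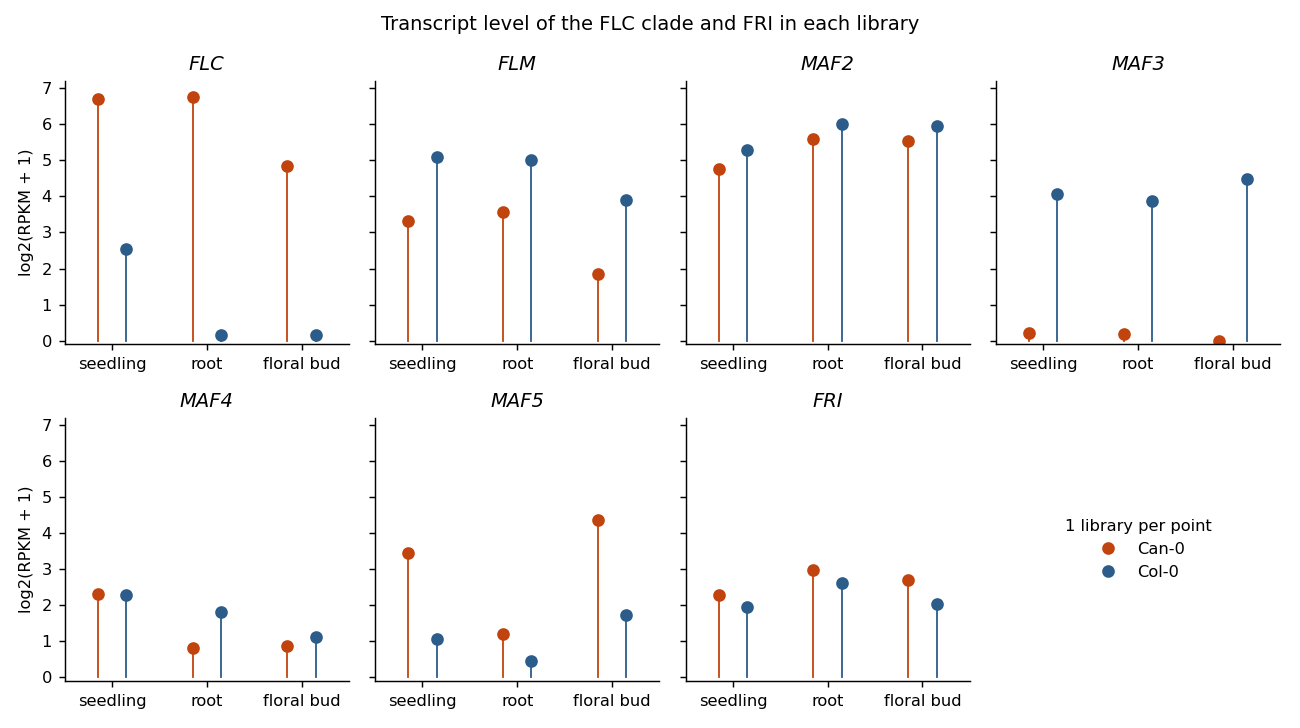
Each point is 1 library: log2(RPKM + 1) of a gene on the y axis, tissue on the x axis, Can-0 to the left of Col-0. FLC and MAF5 are higher in Can-0 in all 3 tissues, FLM, MAF2 and MAF3 are lower in Can-0 in all 3, and MAF3 is near or at 0 in every Can-0 library.

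MAF3, a floral repressor of the clade, showed the opposite picture. It stood at 0.147 RPKM in Can-0 seedlings and 15.9 RPKM in Col-0 seedlings, at 0.139 RPKM in Can-0 roots and 13.6 RPKM in Col-0 roots, and was listed at 0 in Can-0 buds against 21.3 RPKM in Col-0 buds. The Can-0 values in seedling and root correspond to about 2.64 to 4.64 reads each. The Col-0 over Can-0 ratio was 109 in seedlings (32.4 to 466) and 97.4 in roots (29.1 to 420), and no ratio is given for buds. MAF3 passed the filter on low values through its Col-0 libraries alone. The sources used here do not say which sequence Can-0 reads were aligned to, and the part of allele differences in the low Can-0 value was not tested. Nor was it tested in the accession differences of the other members.

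FLM, which acts with SVP in the response of flowering to ambient temperature through alternatively spliced forms, was also lower in Can-0. It stood at 8.98 RPKM in Can-0 seedlings and 33.3 RPKM in Col-0 seedlings, at 10.9 RPKM in Can-0 roots and 31.1 RPKM in Col-0 roots, and at 2.61 RPKM in Can-0 buds and 13.8 RPKM in Col-0 buds. The groups did not overlap, a separation that was not counted over all genes. The Col-0 over Can-0 ratio was 3.71 in seedlings (3.07 to 4.50), 2.86 in roots (2.41 to 3.42) and 5.30 in buds (3.82 to 7.65). The 11 annotated FLM transcripts run from 722 to 4099 bases, and a gene-level RPKM does not separate them.

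MAF5, at the far end of the tandem array from MAF2, was higher in Can-0. It stood at 9.92 RPKM in Can-0 seedlings and 1.07 RPKM in Col-0 seedlings, at 1.302 RPKM in Can-0 roots and 0.370 RPKM in Col-0 roots, and at 19.6 RPKM in Can-0 buds and 2.33 RPKM in Col-0 buds. Higher values in Can-0 were seen within every tissue, although the Can-0 root value lay below the Col-0 bud value. The Can-0 over Col-0 ratio was 9.26 in seedlings (4.73 to 23.5) and 8.42 in buds (5.14 to 14.2), and 3.52 in roots, where the interval of 0.845 to 18.6 includes equal levels. That root interval rests on about 10.5 reads in Can-0 and 2.93 in Col-0, estimated with the shortest MAF5 transcript of 354 bases. With the longest, of 1130 bases, the estimates are 33.4 and 9.36 reads, which would give a narrower interval.

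MAF2, which is known to hold back flowering after brief cold, was the steadiest member of the clade. It stood at 25.9 RPKM in Can-0 seedlings and 38.4 RPKM in Col-0 seedlings, at 47.0 RPKM in Can-0 roots and 63.9 RPKM in Col-0 roots, and at 45.6 RPKM in Can-0 buds and 61.0 RPKM in Col-0 buds. Its Can-0 level was below its Col-0 level in each tissue, by ratios of Col-0 over Can-0 between 1.34 and 1.48, each with a counting interval above 1. Those intervals cover counting error only, and the part of allele differences or of reads shared with relatives was not tested. The standard deviation of its log2 level over the 6 libraries was 0.47, against 3.02 for FLC, 2.21 for MAF3 and 1.53 for MAF5.

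MAF4 was low throughout, and the accessions overlapped. It stood at 3.95 RPKM in Can-0 seedlings and 3.89 RPKM in Col-0 seedlings, at 0.752 RPKM in Can-0 roots and 2.52 RPKM in Col-0 roots, and at 0.819 RPKM in Can-0 buds and 1.15 RPKM in Col-0 buds. The Col-0 over Can-0 ratio was 3.35 in roots (1.77 to 6.81), while the intervals in seedlings (0.687 to 1.41) and buds (0.666 to 2.97) include equal levels.

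FRI, whose product acts upstream of FLC, was low in every library and a little higher in Can-0 within each tissue. It stood at 3.91 RPKM in Can-0 seedlings and 2.83 RPKM in Col-0 seedlings, at 6.82 RPKM in Can-0 roots and 5.11 RPKM in Col-0 roots, and at 5.52 RPKM in Can-0 buds and 3.09 RPKM in Col-0 buds. The Can-0 over Col-0 ratio was 1.38 in seedlings (1.10 to 1.74), 1.34 in roots (1.13 to 1.59) and 1.79 in buds (1.45 to 2.20), so each lay above 1 by more than counting error. Values over all libraries nevertheless overlapped between the accessions. The FRI coding sequence annotated in the Col-0 reference has 314 codons, and transcript level says nothing of whether the protein works. A short protein-coding gene, AT4G00651, overlaps the end of FRI on the other strand and stood at 0.471 to 1.52 RPKM over the libraries. An antisense RNA gene, AT4G03675, is also annotated there on the other strand, and without knowledge of strand its reads and those of FRI cannot be told apart.

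**Figure D2:**
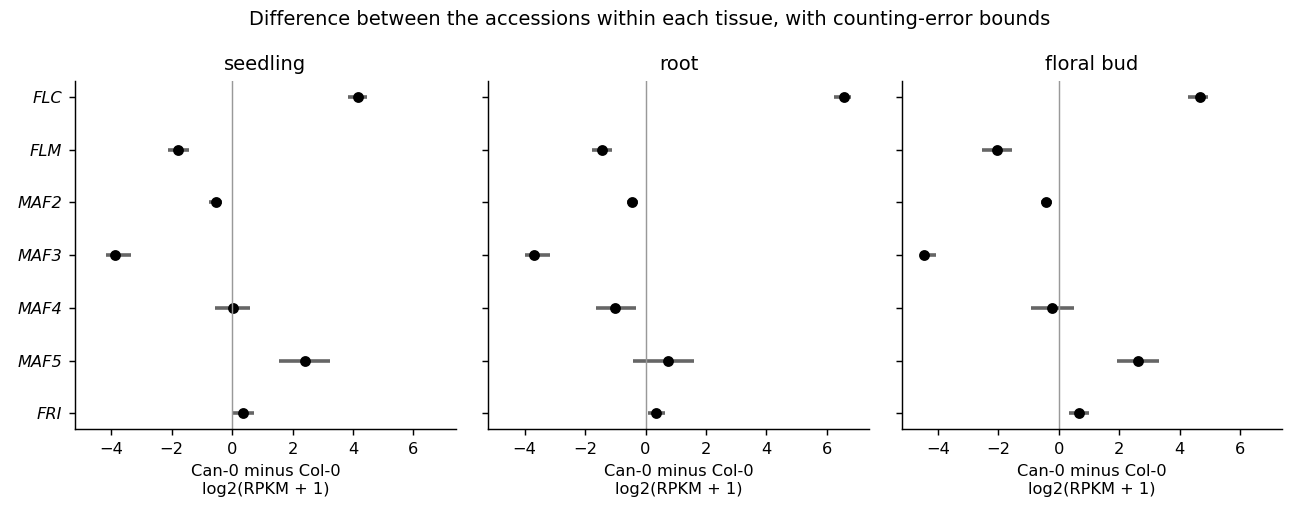
Points give the Can-0 minus Col-0 difference of log2(RPKM + 1) within a tissue, with 1 library per accession. Lines are bounds from exact 95% Poisson intervals of both values, widest because the shortest transcript was used, and cover counting error only. FLC lies at 4.16 to 6.58 and MAF3 at -4.48 to -3.68, whereas the bounds of MAF4 in seedling and bud and of MAF5 in root include 0.

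With 1 library a group there is no test within a tissue, so counts past a fixed size are given. A difference of at least 1 in size was seen for 4 of the 7 genes in seedlings (FLC and MAF5 higher, FLM and MAF3 lower in Can-0), against 9.01% (4.78% higher, 4.23% lower) of the 17901 features that reached 1 RPKM in 1 of the pair. In roots it was seen for 4 of 7 (FLC higher, FLM, MAF3 and MAF4 lower), against 7.43% (3% higher, 4.42% lower) of 18973 genes, and in buds for 4 of 7 (FLC and MAF5 higher, FLM and MAF3 lower), against 7.5% (3.87% higher, 3.63% lower) of 19634 genes. FLC, FLM and MAF3 passed that size in the same direction in all 3 tissues, as did 1.36% of 20830 genes (0.533% higher, 0.826% lower).

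The accession comparison over the tissues asked which transcripts differed between Can-0 and Col-0 whatever the organ. It was tested with limma on the genes that reached 1 RPKM in 2 or more libraries, with the tissues in place of replicates, so a call means that the mean difference was large against how far the tissues disagreed. FLC was higher in Can-0 by 5.14 ± 0.50 (SE, 6 libraries; limma adjusted p = 0.0374), with the estimate ranking 3 from the top of 20830 genes. FLC reached 1 RPKM in every Can-0 library but, within Col-0, in seedlings alone. Its Col-0 libraries would thus not have met the filter without Can-0, where FLC was high, and the FLC call carries that limit. MAF3 was lower by -4.01, but it entered the fit through its Col-0 libraries alone, so this difference is given with no test. FLM was lower by -1.75 ± 0.15 (limma adjusted p = 0.0298). By limma 3 of 7 members were counted, a count that includes MAF3 and FLC and so is not read as a result. Over all tested genes 0.96% were called, 0.403% higher and 0.557% lower in Can-0.

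The remaining members did not pass the test. MAF5 differed by 1.93 ± 0.41 (limma adjusted p = 0.145), MAF2 by -0.47 ± 0.08 (limma adjusted p = 0.113), MAF4 by -0.41 ± 0.24 (limma adjusted p = 0.455) and FRI by 0.46 ± 0.14 (limma adjusted p = 0.220). MAF5 was higher in Can-0 in all 3 tissues, and FRI too, while MAF2 was lower in all 3. Such agreement of direction carries no test, and its share over all tested genes was not counted. The fit has 2 residual degrees of freedom, and fewer where a library is left out. Each tissue has its own term, so leaving out either library of a tissue removes that tissue from the accession difference. The FLC difference was thus 5.63 without Can-0 seedling and 5.63 without Col-0 seedling. The FLC call was lost in the former refit and kept in the latter. That split does not show reliance on the Can-0 seedling library. The FLC call was lost too where either bud library was left out. The FLM call was lost where either seedling or either bud library was left out. MAF5 passed where either root library was left out. The FLC call was also lost with a pseudocount of 0.1 (limma adjusted p = 0.0620) or 5 (limma adjusted p = 0.0635) and where the filter asked for an average of 5 RPKM (limma adjusted p = 0.0543). With no filter the FLC and FLM calls were both lost (limma adjusted p = 0.247 and 0.213). In seedling and root alone, where both accessions shared a run, FLC differed by 5.37, MAF3 by -3.78 and FLM by -1.61. FLC and FLM did not pass there.

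**Figure D3:**
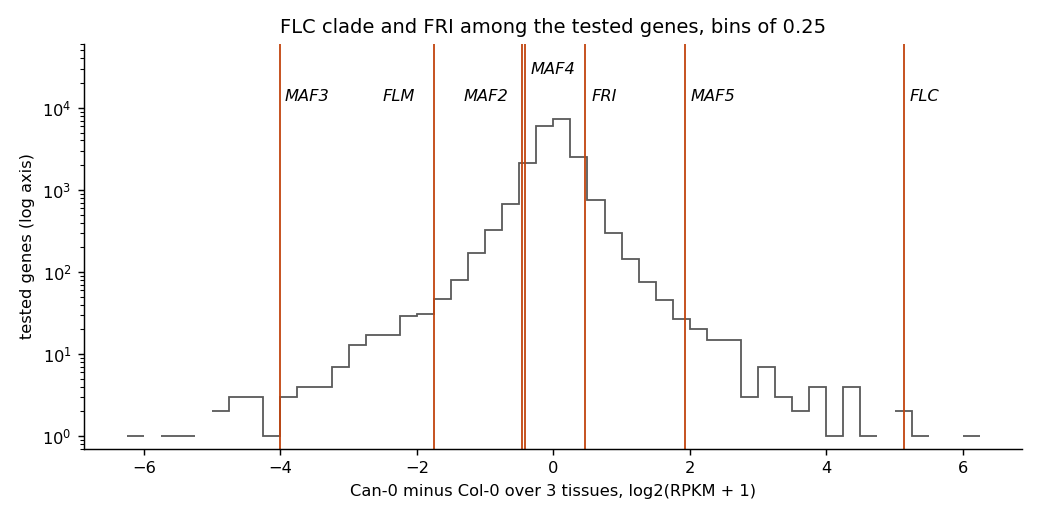
The line counts tested genes (log axis) in bins of 0.25 of the Can-0 minus Col-0 difference in log2(RPKM + 1) over 3 tissues; vertical lines mark the 7 genes. FLC at 5.14 and MAF3 at -4.01 stand in the thin tails, while MAF2, MAF4 and FRI lie within 0.5 of 0.

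The make-up of the clade differed more than its sum. The summed level of FLC, FLM and MAF2 to MAF5 was 153 RPKM in Can-0 seedlings and 97.4 RPKM in Col-0 seedlings, 166 RPKM in Can-0 roots and 112 RPKM in Col-0 roots, and 96.5 RPKM in Can-0 buds and 99.8 RPKM in Col-0 buds. FLC made up 68.0% of that sum in Can-0 seedlings and 4.98% in Col-0 seedlings, 63.9% in Can-0 roots and 0.111% in Col-0 roots, and 28.8% in Can-0 buds and 0.124% in Col-0 buds. In every Col-0 library MAF2 was the member with the highest level, at 39.4% of the sum in seedlings, 57.3% in roots and 61.2% in buds, followed by FLM in seedlings and roots and by MAF3 in buds. In Can-0 FLC came first and MAF2 second in seedlings and roots, and MAF2 came before FLC and FLC before MAF5 in buds. Counting intervals of MAF5 and FLM in Can-0 seedlings overlapped, as did those of MAF4 and FRI there and of MAF4 and MAF5 in Can-0 roots, so those neighbours in the order are not distinguished. In Col-0 the intervals overlapped for MAF2 and FLM in seedlings, for FLC with MAF4 and MAF4 with FRI in seedlings, for MAF5 and FLC in roots, and for FRI with MAF5 and MAF5 with MAF4 in buds.

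**Figure D4:**
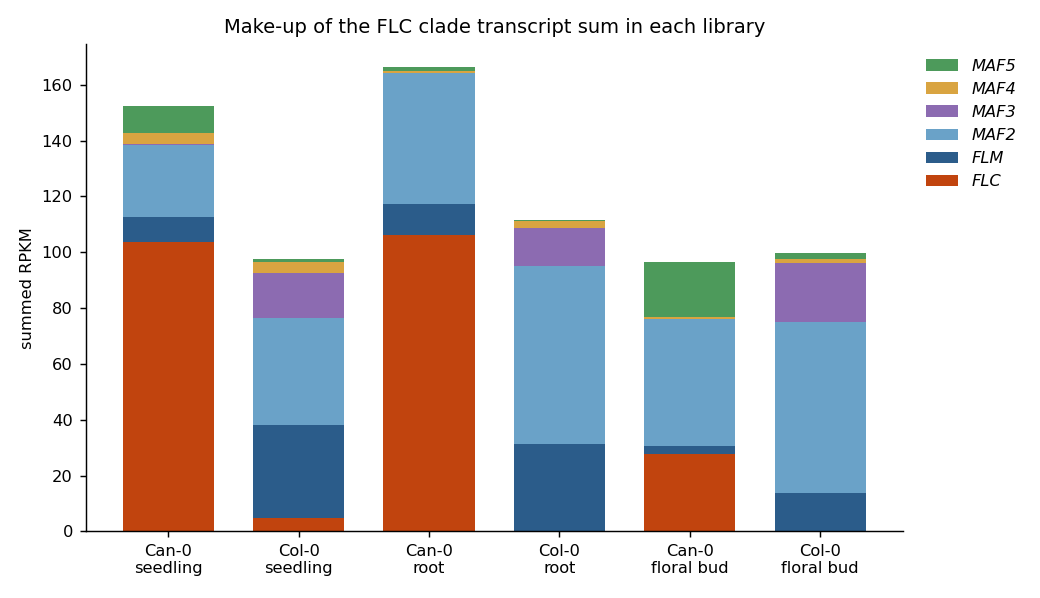
Stacked bars give summed RPKM of the 6 clade genes in each library, Can-0 left of Col-0 within a tissue. FLC fills 68.0% of the Can-0 seedling bar and 4.98% of the Col-0 seedling bar, while MAF3 is visible in Col-0 bars alone.

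Tissue comparisons asked how the genes changed over both accessions. FLM was lower in buds than in seedlings (-1.34 ± 0.18, limma adjusted p = 0.00640, and 0.0518 without Can-0 bud) and lower in buds than in roots (-1.42 ± 0.18, limma adjusted p = 0.00332). FLC was lower in buds than in seedlings (-2.12 ± 0.61, limma adjusted p = 0.0465), a call lost without Col-0 seedling, Can-0 bud or Col-0 bud (limma adjusted p = 0.133 to 0.227), with a pseudocount of 0.1 (limma adjusted p = 0.0737) or 5 (limma adjusted p = 0.0689), with no filter (limma adjusted p = 0.172) or with no trend (limma adjusted p = 0.0536). The difference between seedlings and roots was 1.17 ± 0.61 (limma adjusted p = 0.163) for FLC, an average of -0.035 in Can-0 and 2.38 in Col-0. Without Can-0 root it was 2.25 (limma adjusted p = 0.00601). Between buds and roots FLC differed by -0.95 ± 0.61 (limma adjusted p = 0.241), an average of -1.89 in Can-0 and -0.0014 in Col-0, and by -2.03 without Col-0 root (limma adjusted p = 0.00582).

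MAF5 was higher in buds than in roots (2.22 ± 0.50, limma adjusted p = 0.0191, 0.123 without Can-0 bud, 0.0531 with a pseudocount of 5 and 0.0957 with no filter), by 3.16 in Can-0 and 1.28 in Col-0. MAF4 was lower in buds than in seedlings (-1.31 ± 0.30, limma adjusted p = 0.0243, 0.111 to 0.151 without Can-0 seedling, Can-0 bud or Col-0 bud, and 0.0953 with no filter). It was higher in seedlings than in roots (0.99 ± 0.30, limma adjusted p = 0.0417), which held in 1 of 6 fits that left out a library, with limma adjusted p = 0.0502 to 0.219 in the other 5, 0.0559 with a pseudocount of 0.1 and 0.133 with no filter. The seedling value of MAF4 was the highest of the 3 tissues within each accession. MAF5 differed between seedlings and roots by 1.42 ± 0.50 (limma adjusted p = 0.0664). That difference passed median-centred (1.69, limma adjusted p = 0.0360) and with quantile normalization (1.74, limma adjusted p = 0.0434). It also passed with a pseudocount of 0.1 (2.08, limma adjusted p = 0.0181), and was 2.30 without Col-0 root. Between buds and seedlings MAF5 differed by 0.80 ± 0.50 (limma adjusted p = 0.258), and by the same amount with limma adjusted p = 0.0330 without Can-0 root and 0.0310 without Col-0 root.

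MAF2 was lower in seedlings than in roots (-0.78 ± 0.10, limma adjusted p = 0.00344). It was higher in buds than in seedlings (0.73 ± 0.10, limma adjusted p = 0.00691), by 0.24 with median-centred values (limma adjusted p = 0.143), and the call was lost without Can-0 bud or Col-0 bud (limma adjusted p = 0.0725 and 0.0605). FRI was lower in seedlings than in roots (-0.67 ± 0.17, limma adjusted p = 0.0246), by -0.40 with median-centred values (limma adjusted p = 0.104), and the call was lost without any 1 of the seedling and root libraries (limma adjusted p = 0.0764 to 0.137), with quantile normalization (limma adjusted p = 0.162) and with no filter (limma adjusted p = 0.0608). MAF3 passed in no tissue comparison. Between buds and roots FRI differed by -0.42 ± 0.17 (limma adjusted p = 0.0926). It passed median-centred at -0.63 (limma adjusted p = 0.0260) and with quantile normalization at -0.69 (limma adjusted p = 0.0197). In bulk tissue, fewer cells that express a gene and less RNA per cell cannot be told apart.

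The background of the tissue comparisons was high. Between buds and seedlings 1 of 7 genes was called higher and 3 lower, where 32.8% and 12% of all tested genes were (44.8% in all). Between buds and roots 1 was called higher and 1 lower, where 30.3% and 27% of all tested genes were (57.3% in all). Between seedlings and roots 1 was called higher and 2 lower, where 18.5% and 41% of all tested genes were (59.5% in all). The median difference over all tested genes was 0.27 between buds and seedlings and -0.33 between seedlings and roots, and median-centring moved these to -0.21 and -0.06. The split of calls between buds and seedlings was 6837 higher and 2499 lower as deposited and 3385 higher and 5522 lower median-centred. Between seedlings and roots it was 3849 higher and 8549 lower as deposited and 4818 higher and 6135 lower median-centred. Between buds and roots it was 6309 higher and 5623 lower as deposited and 5336 higher and 7488 lower median-centred. Small tissue differences are thus read against those medians.

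The partner and the targets of FLC were examined next. SVP, the partner, stood at 33.1 RPKM in Can-0 seedlings and 56.3 RPKM in Col-0 seedlings, at 2.16 RPKM in Can-0 roots and 8.26 RPKM in Col-0 roots, and at 6.42 RPKM in Can-0 buds and 8.19 RPKM in Col-0 buds. SOC1, a MADS-box promoter of flowering that FLC represses, stood at 1.95 RPKM in Can-0 seedlings and 25.1 RPKM in Col-0 seedlings, at 0.959 RPKM in Can-0 roots and 11.9 RPKM in Col-0 roots, and at 50.6 RPKM in Can-0 buds and 50.6 RPKM in Col-0 buds. SOC1 was thus lower in Can-0 in seedlings and roots and level between accessions in buds, with differences of -3.15 in seedlings, -2.72 in roots and -0.00 in buds. Over the tissues it differed by -1.96 ± 0.66 (limma adjusted p = 0.258), and whether the difference varied with tissue could not be tested with 1 library a group.

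FT, the mobile flowering signal, was listed at 0 in Can-0 seedlings and roots and stood at 0.517 RPKM in Col-0 seedlings and 0.0516 RPKM in Col-0 roots. In buds it stood at 6.03 RPKM in Can-0 and 7.88 RPKM in Col-0. FD, the bZIP partner of FT, stood at 1.74 RPKM in Can-0 seedlings and 2.07 RPKM in Col-0 seedlings, at 4.78 RPKM in Can-0 roots and 5.55 RPKM in Col-0 roots, and at 1.14 RPKM in Can-0 buds and 0.814 RPKM in Col-0 buds. Over the tissues SVP differed by -0.87 ± 0.26 (limma adjusted p = 0.220), FT by -0.34 ± 0.17 (limma adjusted p = 0.387) and FD by -0.04 ± 0.16 (limma adjusted p = 0.929). FT also entered the fit through the bud libraries alone, and its differences of 2.68 between buds and seedlings and 2.95 between buds and roots are given with no test. SVP was lower in buds than in seedlings (-2.42, limma adjusted p = 0.00572) and higher in seedlings than in roots (3.03, limma adjusted p = 0.00178).

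Between the accessions 0.96% of all tested genes were called, so few or no calls would be seen in lists of this size at that share. The count by limma was 0 among 7 of the FRI complex, 15 chromatin activators, 8 of the autonomous pathway, 12 of vernalization and Polycomb and 6 tested of 7 partners and targets, with medians of -0.05, 0.03, -0.04, 0.03 and -0.52 against 0.02 over all tested genes. An unadjusted p under 0.05 was seen for 3590 of the 20830 tested genes. In the lists, the counts at that level were 1 (FRI), 2 (VIP4 and CDC73), 0, 2 (VAL1 and VIL2) and 3 (SVP, SOC1 and TEM1). VAL1, a B3-domain protein that recruits repression to FLC, is singled out after its values were seen. It stood at 2.88 RPKM in Can-0 seedlings and 11.3 RPKM in Col-0 seedlings, at 5.33 RPKM in Can-0 roots and 10.9 RPKM in Col-0 roots, and at 3.95 RPKM in Can-0 buds and 9.27 RPKM in Col-0 buds. The accessions did not overlap at VAL1, a separation that was not counted over all genes, and its difference of -1.21 ± 0.19 did not pass (limma adjusted p = 0.0894).

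Among the regulators named, VIN3 had the largest tissue difference. VIN3 is the plant homeodomain protein that cold induces to silence FLC. It stood at 20.3 RPKM in Can-0 buds and 22.2 RPKM in Col-0 buds, at 0.0206 RPKM in Can-0 seedlings and 0 in Col-0 seedlings, and at 0.0197 RPKM in Can-0 roots and 0.0795 RPKM in Col-0 roots. VIN3 reached 1 RPKM in the bud libraries alone and so entered the fit through the tissue where it is high, and its differences of 4.46 between buds and seedlings and 4.40 between buds and roots are given with no test. VIN3 was thus near 0 in both accessions outside buds.

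**Figure D5:**
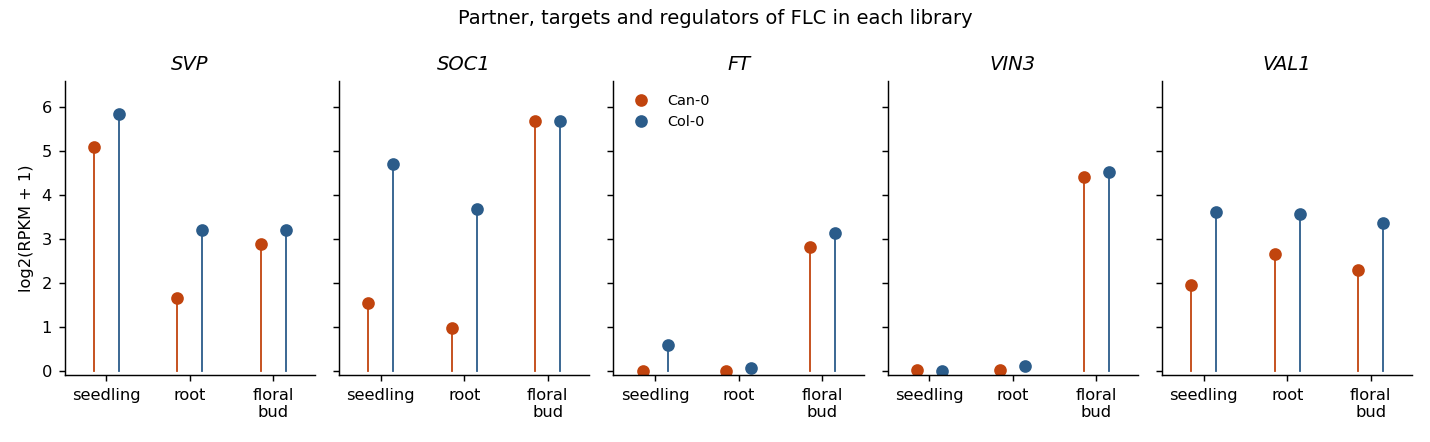
Points give log2(RPKM + 1) of FLC's partner SVP, its targets SOC1 and FT, and its regulators VIN3 and VAL1 in each library, Can-0 left of Col-0. SOC1 is lower in Can-0 in seedling and root and level in bud, and VIN3 is above 20 RPKM in buds alone.

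Counts of the regulator lists between tissues stand beside the shares of all tested genes, and are not set apart from them by any test. Against roots, where 41% of all tested genes were lower in seedlings and 18.5% higher, seedlings had 4 of 7 FRI complex genes lower (median -0.47), 7 of 15 chromatin activators (median -0.40), 2 of 8 autonomous genes (median -0.24) and 5 of 12 vernalization and Polycomb genes (median -0.39), with none higher, beside a median of -0.33 over all tested genes. The ubiquitin-conjugating enzyme UBC1 (-1.18, limma adjusted p = 0.00149), the chromatin remodelling subunit SEF (-0.89, limma adjusted p = 0.00368), the DNA-binding protein VRN1 (-1.26, limma adjusted p = 0.00122) and VAL2 (-0.92, limma adjusted p = 0.00425), a relative of VAL1, were lower in seedlings also under both other scalings. FRL2 (-0.80, limma adjusted p = 0.0193), LD (-0.52, limma adjusted p = 0.0351) and FLK (-0.50, limma adjusted p = 0.0396) were lower as deposited but not called median-centred (limma adjusted p = 0.0563, 0.194 and 0.204). With median-centred values the counts lower became 0, 5, 0 and 2, and those higher 0, 2, 1 and 0. Among partners and targets 2 of 6 were higher and 2 lower, the higher ones being SVP and TEM1 (1.57, limma adjusted p = 0.00206), a repressor of FT.

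Against seedlings, where 32.8% of all tested genes were higher in buds and 12% lower, buds had 3 of 7 FRI complex genes, 5 of 15 chromatin activators, 2 of 8 autonomous genes and 5 of 12 vernalization and Polycomb genes higher, and none lower, beside a median of 0.27 over all tested genes, with VIN3 in the last of these counts. Median-centred, the counts higher were 0, 0, 0 and 1 and those lower 0, 1, 0 and 1. The 1 counted higher was VIN3, which entered the fit through the bud libraries alone and is given with no test. FLX (0.90), FRL2 (0.73), SEF (0.65), UBC1 (0.53), FCA (0.52), FLK (0.51) and VIL2 (0.79) were higher as deposited (limma adjusted p = 0.00606, 0.0333, 0.0143, 0.0228, 0.0498, 0.0461 and 0.00831) and not called median-centred, though VIL2 passed under quantile normalization (0.51, limma adjusted p = 0.0297). Against roots, where 30.3% of all tested genes were higher in buds and 27% lower, buds had 1, 3, 1 and 1 genes of these lists higher and 0, 3, 0 and 2 lower. The 1 vernalization and Polycomb gene counted higher was again VIN3. Of 6 tested partners and targets, 2 were higher and 2 lower in buds against seedlings, and 3 were higher and 2 lower in buds against roots. Both counts higher include FT, which entered the fit through the bud libraries alone. Among the regulators against roots, the following genes are named. ARP6 (0.67, limma adjusted p = 0.0187), an actin-related chromatin protein, was higher and UBC1 (-0.65, limma adjusted p = 0.00924) and VAL2 (-0.73, limma adjusted p = 0.00897) were lower, each lost without 2 or 3 of the libraries in turn (limma adjusted p up to 0.134). FLX (0.43, limma adjusted p = 0.0353) and FVE (0.41, limma adjusted p = 0.0264) were higher as deposited and not called median-centred (limma adjusted p = 0.198 and 0.205). SOC1 was higher in buds than in roots (3.36, limma adjusted p = 0.0228, and 0.0998 without Can-0 root).

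Genes with a pattern most like each member were sought by the root mean square difference of log2 levels over the 6 libraries, each gene taken relative to its own mean. For FLC these were UBQ13 (AT1G65350, 1.00), AT5G03090 (1.03) and AT3G43572 (1.11). AT5G03090 stood at 67.5, 108 and 49.3 RPKM in Can-0 seedlings, roots and buds and was listed at 0 in all 3 Col-0 libraries, as was UBQ13. For MAF3 it was AT3G61010 (0.26), at 0, 0.245 and 0.0212 RPKM in Can-0 seedlings, roots and buds and 12.4, 10.0 and 13.2 RPKM in Col-0. The nearest were AT5G35740 for FLM (0.35), AT2G33175 for MAF5 (0.42), AT1G33050 for MAF2 (0.04), the tryptophan synthesis gene TRP1 for MAF4 (0.14) and AT3G03305 for FRI (0.06).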

How the data were processed

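RPKM values, which the file headers define by exon model length and mapped reads, were deposited by the authors for 28775 features in each of 6 libraries. The submitters' processing notes list TAIR9 and TAIR10 but give neither a role. The sources used here do not state the aligner, the counter, the use of strand or the handling of reads with several matches. Genes that reached 1 RPKM in 2 or more libraries (20830) entered a limma fit (version 3.58.1, R 4.3.3) of log2(RPKM + 1) on accession and tissue, with an empirical Bayes trend, 2 residual and 2.55 prior degrees of freedom. Tests were two-sided, with Benjamini-Hochberg adjustment over every gene fitted and a threshold of 0.05, and the fit was tested on simulated data. Mapped reads were estimated from the spacing of small values of single-transcript genes. Positions, lengths and sequences came from RefSeq TAIR10.1, which held all 7 genes, and identities from Biopython 1.88 alignments. Members and lists were chosen with earlier results of these data known. Named genes are the 7 members, the nearest patterns, SVP, SOC1, FT and FD, and up to 2 called genes per list and comparison with the largest difference. VAL1 and the genes named at an unadjusted p fall outside that rule and were chosen after their values were seen. Alternatives were the pseudocount, filter, scaling, empirical Bayes settings and leaving out libraries.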

Additional observations from a re-analysis of the deposited data

Results flagged for a closer look

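Differences that point opposite ways in groups of 1 library each are listed here, and none of these differences between groups was tested. FLC differed between seedlings and roots by -0.035 in Can-0 and 2.38 in Col-0. FLM differed between seedlings and roots by -0.25 in Can-0 and 0.10 in Col-0. MAF3 differed between buds and seedlings by -0.20 in Can-0 and 0.40 in Col-0, and between buds and roots by -0.19 in Can-0 and 0.61 in Col-0, with Can-0 values that rest on a few reads. MAF4 differed between Can-0 and Col-0 by 0.019 in seedlings, -1.01 in roots and -0.24 in buds, and between buds and roots by 0.0545 in Can-0 and -0.71 in Col-0.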

How the results depend on the processing

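With 1 library a group, calls rest on 2 residual degrees of freedom and low values on a few reads, and causes of the changes given here were not tested. The accession count of 200 genes was 74 with a pseudocount of 5, 68 with a mean of at least 5 RPKM, and by limma 0 with no filter (3667 at an unadjusted p under 0.05) and 0 in seedling and root alone (2149), where fewer libraries were fitted. The FLC accession call was lost at 6.75 with a pseudocount of 0.1, 3.53 with 5, 5.14 with no filter or a mean of at least 5 RPKM, and 5.37 in seedling and root alone. The FLM call was lost at -1.75 with no filter and -1.61 in seedling and root alone. MAF3, given with no test, differed by -4.01 with no filter and -3.78 in seedling and root alone. Leaving out each library in turn gave 0 to 120 genes for accession, 2859 to 8997 for buds against seedlings, 6584 to 11799 for buds against roots and 8068 to 11258 for seedlings against roots. The 0 arose without either bud library, where 2189 and 2202 genes had an unadjusted p under 0.05. The same fits gave accession differences of 4.42 to 5.63 for FLC, -1.91 to -1.61 for FLM, -4.18 to -3.78 for MAF3 and 1.57 to 2.51 for MAF5. Leaving out either library of a tissue gives the same accession difference, so these ranges show the effect of leaving out a tissue. Directions turned for uncalled differences alone. MAF3 in buds against seedlings was -0.44 with a pseudocount of 0.1, -0.26 with quantile normalization, -0.38 median-centred and -0.25 to 0.45 without 1 library, and in buds against roots -0.31 with a pseudocount of 0.1, -0.0016 median-centred and -0.14 to 0.56 without 1 library. FRI in buds against seedlings was -0.37 with quantile normalization and -0.23 median-centred. FLM in seedlings against roots was 0.14 with quantile normalization, 0.19 median-centred and -0.32 to 0.16 without 1 library. Without 1 library, FLC in buds against roots was -2.03 to 0.13, MAF4 there -0.78 to 0.12, and MAF3 in seedlings against roots -0.14 to 0.36. Over all refits of the members' 28 tested differences, 313 kept direction and side of the threshold, 50 lost it, 12 gained it and 16 turned. No paired analysis was possible because each group holds only replicate 1, so replicate numbers pair nothing beyond tissue, which the accession fit holds as a term and so sets Can-0 against Col-0 within each tissue.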

Other observations

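Genes that flank the 4 loci were looked up, and their values carry no test. Beyond MAF5, the next gene is BST1 (AT5G65090), which acts in root hair growth. It stood at 7.07 RPKM in Can-0 seedlings and 0.560 RPKM in Col-0 seedlings, at 7.55 RPKM in Can-0 roots and 9.90 RPKM in Col-0 roots, and at 9.31 RPKM in Can-0 buds and 6.93 RPKM in Col-0 buds. BST1 and MAF5 were thus both higher in Can-0 seedlings, by 2.37 and 2.40, while in roots BST1 differed by -0.35 and MAF5 by 0.75. On the other side of the array, AT5G65040 differed by -0.89 in seedlings, 0.68 in roots and 0.62 in buds. Beside FLC, AT5G10130 differed by -0.07, 0.74 and 0.07 in seedlings, roots and buds, and AT5G10150 by -0.69, 0.37 and 0.67. Next to FLM, AT1G77060 differed by -0.10 in seedlings, 0.47 in roots and -0.55 in buds, while AT1G77090 was lower in Can-0 in all 3 tissues, by -0.61 in seedlings, -0.86 in roots and -0.40 in buds. KEA2 (AT4G00630), an ion antiporter gene beside FRI, was higher in Can-0 in all 3 tissues, by 0.31, 0.30 and 0.80, while AT4G00651, which overlaps the end of FRI, differed by -0.54 in seedlings, 0.22 in roots and -0.78 in buds.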
